A study of Mus musculus with 8 samples.

Results

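The 32 genes described here belong to the unfolded protein response and the integrated stress response, the programmes by which a cell answers misfolded protein in the endoplasmic reticulum (ER) and shortage of amino acids. They are a list of known pathway genes, and 31 of the 32 were measured among 22180 genes. The exception is Pdia4, whose only row on the array also names a microRNA gene, so it is not reported alone. The measured members were grouped by role as 5 sensors and signal transducers, 13 ER chaperones and folding enzymes, 5 genes of translocation and ER-associated degradation, and 8 genes of the ATF4-CHOP axis.

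Liver RNA of 8 mice was hybridised to 8 Affymetrix Mouse Gene 2.0 ST arrays. Of these, 4 arrays are labelled wild-type and 4 IL-10 knockout, that is, without the anti-inflammatory cytokine interleukin-10. Every mouse is labelled C57BL/6, female and 6 weeks old, and every mouse had drunk 3% dextran sulfate sodium (DSS) for 7 days, a compound that damages the epithelium of the colon and so gives colitis. There were no mice without DSS among these arrays, so the comparison is of genotypes under colitis, and it cannot tell how DSS itself acts on these genes. The labels do not say how the knockout allele was made, nor how the arrays correspond to litters, so p-values measure only the spread between these samples.

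The values are log2 levels from robust multi-array averaging (RMA), with array medians of 6.09 to 6.22 over all rows. A value after ± is the SD of the 4 arrays of a group (n = 4), and SE is the error of a difference. The Il10 row, which would be low if its probes lay in a deleted part, read 4.97 ± 0.08 in wild-type and 5.97 ± 0.32 in knockout arrays, and the position of the mutation relative to its probes is not known here, so this row does not check the labels. Wild-type replicates 1 and 2 and knockout replicates 1 and 2 carried Y-linked signal (mean of 3 Y-linked genes between 8.20 and 8.52, against 4.30 to 4.48 in the other 4 arrays) although labelled female. Each group thus holds 2 arrays with Xist signal and 2 with Y-linked signal, and results that depend on this split are given with it. The tissue label was borne out: the hepatocyte transcript Alb, which encodes albumin, read 13.5 to 13.7 in all 8 arrays.

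The ER folds secreted proteins, of which the liver makes large amounts. Accumulated misfolded protein is sensed by IRE1 (gene Ern1), PERK (Eif2ak3) and ATF6. IRE1 splices Xbp1 mRNA and ATF6 is cut to an active fragment, and both raise chaperones and degradation genes. PERK phosphorylates the initiation factor eIF2, which lowers protein synthesis while raising translation of ATF4; ATF4 and its target CHOP (Ddit3) then raise amino acid and stress genes. Gene-level array values do not separate spliced from unspliced Xbp1, nor do they report cleavage or phosphorylation.

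The stretches of promoter below are printed because they hold the motifs through which ATF6 and XBP1, for the chaperones, and ATF4 and CHOP, for the other arm, are known to act. Sequences are from RefSeq (GRCm38.p6), which lists a window of 250 bases before to 50 after the start for 29 of the 32 genes; Atf6, Hyou1 and Manf are not among them. The ER stress response element, searched as CCAAT and CCACG with 9 bases of any kind between them on both strands, occurred in 6 of 12 chaperone genes (the 12 include Pdia4), in 1 of 5 translocation and degradation genes, and in none of 4 sensor and 8 ATF4-CHOP genes. It occurs in 0.119% of all 32851 windows. Here and below, a gene was counted if any of its windows held a match. Counts of genes and shares of windows are thus unlike units. Matches are in capitals, on the gene's own strand, with 12 bases on either side. Hsp90b1 has 2 matches.
Hspa5, chr2:34772013-34772055 (+ strand): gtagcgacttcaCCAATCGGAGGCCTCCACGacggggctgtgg
Hsp90b1, chr10:86705521-86705668 (- strand): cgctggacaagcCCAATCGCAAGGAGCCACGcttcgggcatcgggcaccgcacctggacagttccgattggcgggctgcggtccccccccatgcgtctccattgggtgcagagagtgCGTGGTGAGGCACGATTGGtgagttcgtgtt
Calr, chr8:84847063-84847105 (- strand): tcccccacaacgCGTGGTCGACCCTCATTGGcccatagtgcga
Pdia6, chr12:17266479-17266521 (+ strand): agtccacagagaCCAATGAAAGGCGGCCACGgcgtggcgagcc
Dnajc3, chr14:118937815-118937857 (+ strand): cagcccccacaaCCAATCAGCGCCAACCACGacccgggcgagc
Creld2, chr15:88819508-88819550 (+ strand): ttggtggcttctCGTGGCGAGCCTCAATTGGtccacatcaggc
Derl3, chr10:75893230-75893272 (+ strand): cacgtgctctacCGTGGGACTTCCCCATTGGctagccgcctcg

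The C/EBP-ATF response element, searched as TGATGNAA on both strands, was found in other members. It occurred in 4 of 8 ATF4-CHOP genes (Asns, Chac1, Atf3 and Trib3), in 1 of 5 degradation genes (Herpud1) and in no chaperone or sensor gene, against 3.97% of all windows. Herpud1 also holds ER stress response element II (ATTGG and CCACG with 1 base between them, both strands), which occurs in 0.0365% of all windows and, among the other members, in Dnajb11 after its start. Both matches of Herpud1 are capitalised. The match of Trib3 lies after its start and is not printed. The unfolded protein response element TGACGTGG was in none of the 29 genes' windows (0.676% of all windows) and the cAMP response element TGACGTCA in 1, that of Ppp1r15a (1.79%), both strands searched. A match is a description of letters, not a measured binding site.
Asns, chr6:7693213-7693244 (- strand): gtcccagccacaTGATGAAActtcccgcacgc
Chac1, chr2:119351037-119351068 (+ strand): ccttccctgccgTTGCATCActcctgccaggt
Atf3, chr1:191183424-191183455 (- strand): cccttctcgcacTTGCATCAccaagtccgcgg
Herpud1, chr8:94386305-94386399 (+ strand): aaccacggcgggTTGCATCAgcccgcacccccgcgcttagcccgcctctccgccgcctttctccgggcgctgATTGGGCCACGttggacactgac

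No stress response member passed the test between genotypes. With limma, 0 of 31 members had an adjusted p below 0.05, against 3.15% of all 22180 genes, and at an unadjusted p under 0.05 there were 5 of 31, against 21.2% of all genes. Groups did not overlap for 3 of 31 members (Eif2ak3, Creb3l3 and Dnajb9, each higher in knockout arrays), against 12.9% of all genes in either direction and 7.2% as higher. With the Xist or Y-linked set as a block, Xbp1 and Asns passed, 2 of 31 against 4.68% of all genes. At an adjusted p below 0.1 there were 3 of 31 (Creb3l3, Xbp1 and Dnajb9), against 7.6%. These counts are close to the background shares, and nothing about the list as a whole is read from them. In bulk liver RNA, fewer cells of a type and less RNA per cell cannot be told apart. The plot of differences with their intervals shows all 31 members.

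**Figure D1:**
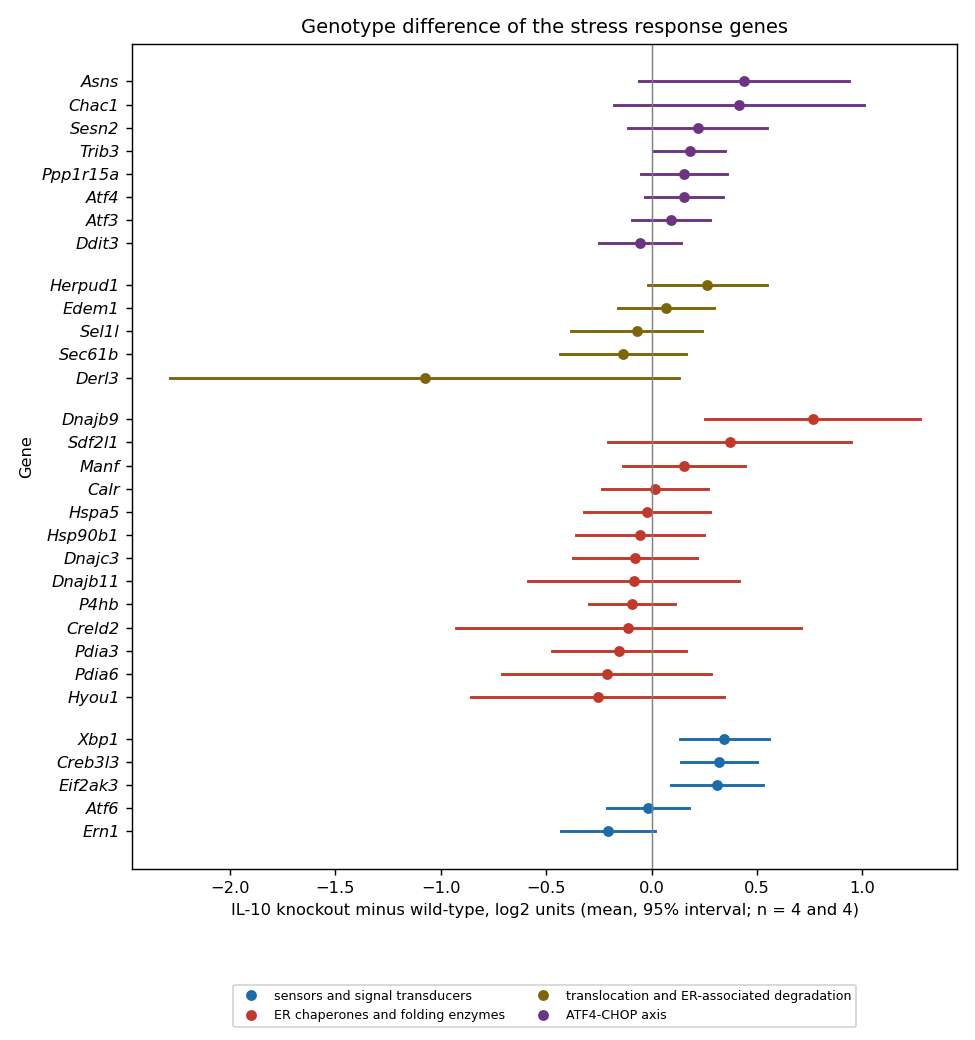
The points give the log2 difference of each member, IL-10 knockout minus wild-type, and the bars its 95% interval from limma (n = 4 and 4 arrays), coloured by role. Differences run from -1.08 (Derl3) to 0.76 (Dnajb9), and the intervals of Xbp1, Creb3l3, Eif2ak3, Dnajb9 and Trib3 exclude 0 before adjustment.

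Among sensors and signal transducers, Xbp1, Creb3l3 and Eif2ak3 had the smallest p-values. Xbp1 (row 17246967), the transcription factor activated by IRE1, read 11.68, 11.62, 11.74 and 11.92 in the wild-type arrays, ordered from replicate 1 to replicate 4, and 12.08, 11.90, 12.12 and 12.25 in the knockout arrays in the same order. Only wild-type replicate 4 reached into the knockout range, by less than 0.1 log2 units. The difference was 0.35 (SE 0.09; limma adjusted p = 0.0791), and 0.34 and 0.35 in the arrays with Y-linked and with Xist signal. With that set as a block the SE was 0.08 and the limma adjusted p 0.0394.

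Creb3l3 (row 17243183) encodes CREBH, a liver transcription factor held in the ER membrane and cut like ATF6. It read 10.92, 11.02, 11.06 and 10.96 in wild-type and 11.37, 11.30, 11.13 and 11.43 in knockout replicates 1 to 4. The groups did not overlap, and knockout replicate 3 was the nearest to wild-type. The difference was 0.32 (SE 0.08; limma adjusted p = 0.0622). It passed without knockout replicate 3 (0.38; adjusted p = 0.0306; 2.6% of all genes called) and under 4 other settings, among them quantile normalization (0.38; adjusted p = 0.0245; 3.87%). It did not pass in the remaining fits, among them a common median (0.27, limma adjusted p = 0.126). Without knockout replicate 4 the difference was 0.28 (limma adjusted p = 0.165).

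Eif2ak3 (row 17459425), which encodes PERK, read 7.94, 7.68, 7.86 and 7.90 in wild-type and 8.24, 7.98, 8.06 and 8.35 in knockout replicates. The groups were apart by a narrow gap, and the difference was 0.31 (SE 0.10; limma adjusted p = 0.111). The other sensors did not share this direction. Ern1, which encodes IRE1, had a difference of -0.21 (SE 0.10; adjusted p = 0.272), with 10.32 to 10.38 in wild-type arrays and 9.86 in knockout replicate 3. Atf6 had -0.02 (95% interval -0.21 to 0.18), and its sign changed between scalings.

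The ER chaperones spread widely between mice of 1 genotype, and none passed between genotypes. Of 13 measured, 4 had a difference above 0 and 9 below 0, with a median of -0.08, against 0.03 over all genes. The main ER chaperone BiP (Hspa5) read 10.65, 10.72, 10.88 and 10.50 in wild-type and 10.83, 10.49, 10.39 and 10.96 in knockout replicates 1 to 4. Both the highest and the lowest array were knockout arrays. Its difference was -0.02 (95% interval -0.32 to 0.28; limma adjusted p = 0.943), and its sign was positive under quantile normalization and cyclic loess.

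Knockout replicates 3 and 4 stood at opposite ends of this group. Replicate 4 was the highest of the 8 arrays for 13 of 13 chaperones, against 12.7% of all genes, and replicate 3 the lowest for 10 of 13, against 18.7%. Both held together for 10 of 13, against 1.76% of all genes. Relative to each gene's own wild-type mean, the chaperone median was -0.35 in knockout replicate 3 and 0.31 in replicate 4, and between -0.15 and 0.11 in the other 6 arrays. This pattern was noticed in the values and is given as a description of single mice.

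Hyou1, the exchange factor that resets BiP, read 11.14, 11.44, 11.46 and 10.92 in wild-type and 11.28, 10.83, 10.18 and 11.65 in knockout replicates 1 to 4. Replicate 4 was thus 2.76-fold above replicate 3 of its own group. Creld2, a secreted ER protein induced by ER stress, read 10.86, 11.19, 11.22 and 10.09 in wild-type and 10.92, 10.38, 9.91 and 11.71 in knockout replicates, a 3.50-fold gap between knockout replicates 4 and 3. Wild-type replicate 4 was the lowest wild-type array for most chaperones, Creld2 among them. The spread of Creld2 was thus wide in both groups (SD 0.53 and 0.78). Between knockout replicates 4 and 3, the gap was 2.67-fold for Sdf2l1, a partner of the BiP co-chaperone Dnajb11, 2.37-fold for Dnajb11 itself, and 2.30-fold for the disulfide isomerase Pdia6. It was smaller for Pdia3 (1.72-fold), Hsp90b1 (1.65-fold), Manf (1.55-fold), Dnajc3 (1.50-fold), Calr and Hspa5 (1.49-fold each) and P4hb (1.36-fold). Hsp90b1 and Calr encode the chaperones GRP94 and calreticulin, P4hb and Pdia3 disulfide isomerases, and Dnajc3 a BiP co-chaperone that inhibits PERK. None of these had a genotype difference beyond its spread: differences ran from -0.25 (Hyou1) to 0.37 (Sdf2l1), with limma adjusted p between 0.434 and 0.951.

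The group medians depended on these arrays: the chaperone median was 0.07 without knockout replicate 3 and -0.17 without replicate 4. Macrophage markers were also lower in knockout replicate 3 than in replicate 4: their median against the wild-type mean was 0.30 and 0.71, and 0.48 and 0.73 in replicates 1 and 2. The neutrophil median was 0.95 in knockout replicate 3 and 0.96 in replicate 4, and 0.59 and 0.56 in replicates 1 and 2. In the other 6 marker lists it ran from -0.08 to 0.17 in replicate 3 and from -0.31 to 0.17 in replicate 4. Knockout replicate 3 was the highest array for 27.0% of all genes. RNA quality values were not used here, and the part of these cells or of single arrays in the pattern was not tested.

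**Figure D2:**
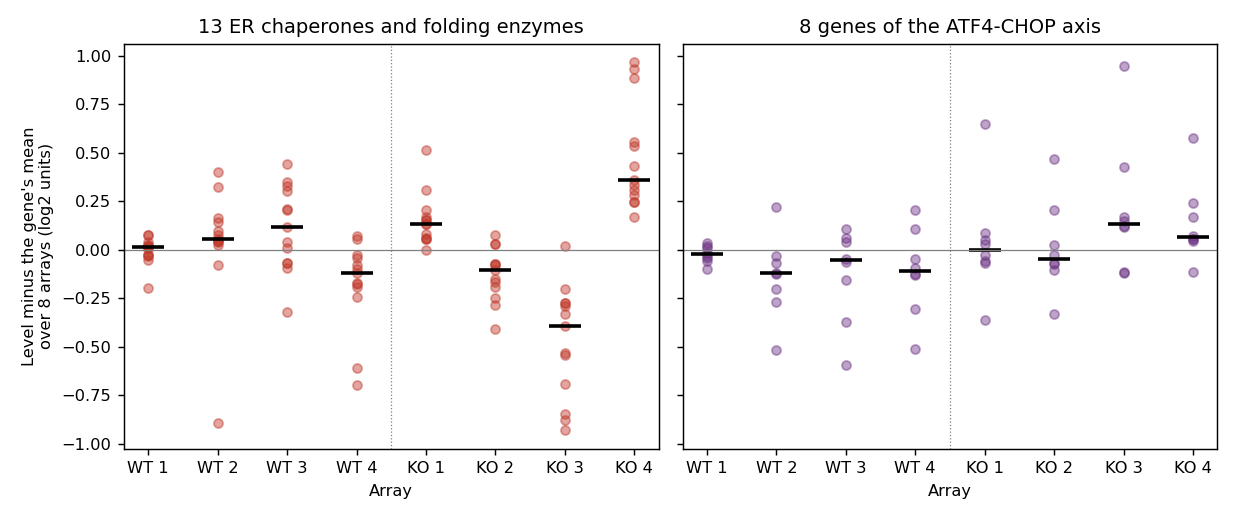
Each point is 1 gene on 1 array, as its log2 level minus its mean over the 8 arrays, for 13 chaperones (left) and 8 ATF4-CHOP genes (right); black bars are medians. All 13 chaperones are highest in knockout replicate 4 (12.7% of all genes) and 10 of 13 lowest in replicate 3 (18.7%). Of the ATF4-CHOP genes, 3 of 8 are highest in replicate 3, near the share of all genes (27.0%).

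Dnajb9 was the exception among the chaperones. It encodes ERdj4, a BiP co-chaperone and well-known target of spliced XBP1 that represses IRE1. Its row (17280893) read 10.45, 9.75, 10.33 and 10.53 in wild-type and 11.16, 10.67, 10.67 and 11.61 in knockout replicates 1 to 4. All knockout arrays lay above all wild-type arrays. The difference of 0.76 (1.70-fold, SE 0.23; limma adjusted p = 0.0988) was the most positive of the 31 members, and was 0.82 and 0.71 in arrays with Y-linked and Xist signal.

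Likeness to Hspa5 over the 8 arrays divided the members by role. Ordered by Pearson's r with Hspa5, 11 of 12 other chaperones and 4 of 5 translocation and degradation genes lay in the top 5% of the 22179 other genes, while none of the 5 sensors and 8 ATF4-CHOP genes did. Dnajb9 was the chaperone outside, at percentile 78.8. The closest member was Dnajc3 (r = 0.96, exact permutation p = 0.000174; Spearman's rho = 0.98, exact permutation p = 0.000397; n = 8). No gene passed after adjustment over the 22179 relations (lowest adjusted p = 0.244; 0.296 for Dnajc3, exact permutation). Without knockout replicates 3 and 4, the arrays farthest from the Hspa5 median, r was 0.92 for Dnajc3, 0.97 for Pdia6 and for Dnajb11 and 0.91 for Hyou1, but 0.32 for Hsp90b1 and 0.12 for P4hb. In those 6 arrays the top 5% held 5 of 12 chaperones and 2 of 5 translocation and degradation genes. It also held 1 of 8 ATF4-CHOP genes (Ppp1r15a, r = 0.78) and none of the 5 sensors. The division by role was thus weaker there. The genes that left the top 5% were not alike. For Hsp90b1 and P4hb most of the likeness was lost without the 2 arrays. Others kept much of it, such as Pdia3 (r = 0.77 in 8 arrays and 0.67 in 6) and Calr (0.83 and 0.62). With fewer arrays r is less certain, so leaving the top 5% does not by itself show that a likeness rests on the 2 arrays. Among the 20 genes most like Hspa5, chosen after the values were seen, were also Sec23a, Uso1, Lman2 and Mcfd2, which carry cargo from the ER to the Golgi. The same 20 held genes such as Ppp1r11, Bud31 and Olfr2, which are in no pathway list here. The transport genes are thus a pick, and their share was not tested.

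Translocation and degradation genes followed the chaperone pattern only in part. Knockout replicate 4 was highest and replicate 3 lowest for 1 of 5 of them, against 10 of 13 chaperones. Sel1l, the adaptor of the main ER ubiquitin ligase, read 11.04, 10.96, 11.04 and 10.83 in wild-type and 11.09, 10.81, 10.50 and 11.19 in knockout replicates 1 to 4. It followed the chaperones, lowest in knockout replicate 3 and highest in replicate 4, with a difference of -0.07 (95% interval -0.38 to 0.24). Edem1, a lectin that hands misfolded glycoproteins to degradation, had 0.07 (-0.16 to 0.30), and a second, lower row of that gene -0.04. Sec61b, a translocon subunit, had -0.14 with levels of 6.08 to 6.68, near the array medians, where no detection call is given.

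Herpud1, a scaffold of the degradation complex whose promoter holds both motifs above, went the other way in knockout replicate 3. It read 11.93, 11.76, 11.97 and 11.87 in wild-type and 12.02, 11.91, 12.55 and 12.11 in knockout replicates, highest where the chaperones were lowest. Its difference was 0.27 (SE 0.13; limma adjusted p = 0.266). Derl3, a component of the retrotranslocation channel, had the widest spread of all members. It read 8.20, 9.32, 9.75 and 7.41 in wild-type and 7.38, 7.62, 6.59 and 8.78 in knockout replicates, and the groups overlapped. Its difference of -1.08 (SE 0.54; limma adjusted p = 0.286) has a 95% interval of -2.29 to 0.13. Knockout replicate 4 was 4.54-fold above replicate 3.

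**Figure D3:**
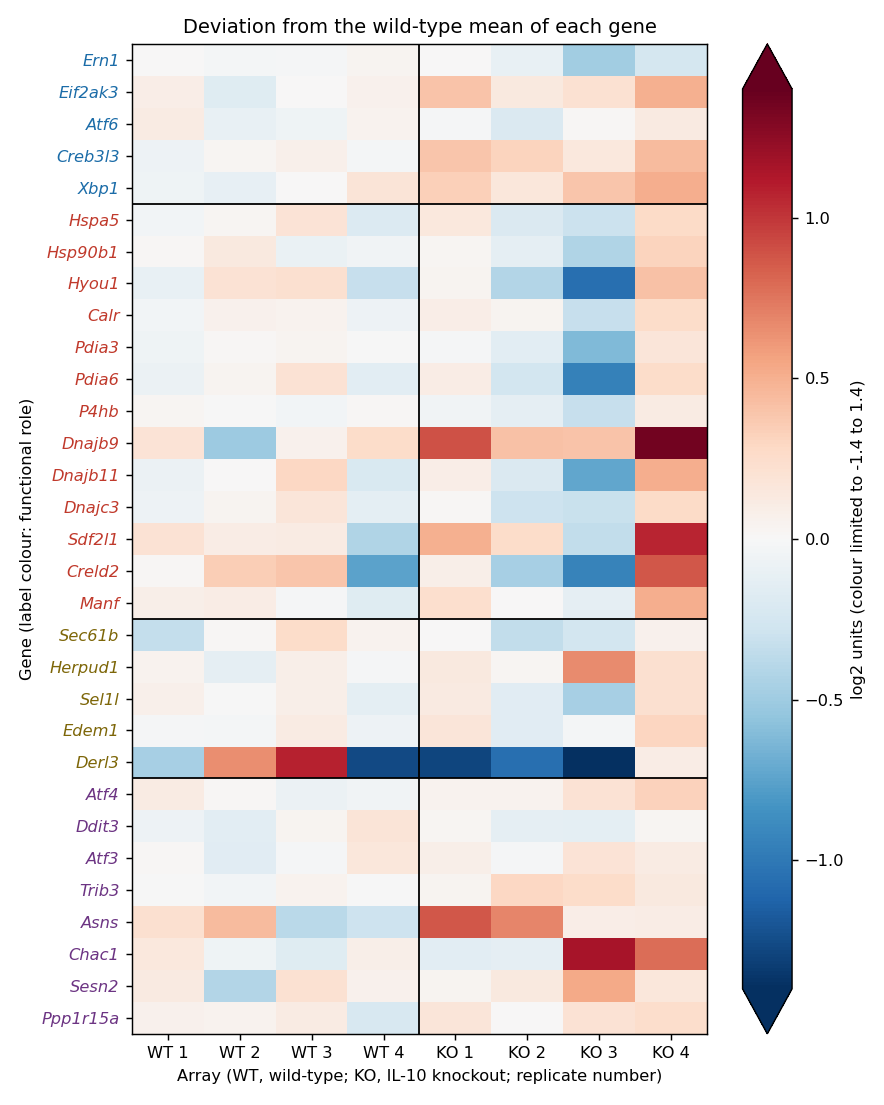
Each cell is the log2 level of 1 member (rows, label coloured by role) on 1 array (columns), minus the wild-type mean of that gene; red is higher, blue lower, and horizontal lines part the roles. The column of knockout replicate 3 is blue for the chaperones other than Dnajb9 and red for Herpud1 and Chac1, the column of knockout replicate 4 is red for the chaperones and these 2 genes, and Xbp1, Creb3l3, Eif2ak3 and Dnajb9 are red in all 4 knockout columns.

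In the ATF4-CHOP axis, 7 of 8 genes had a difference above 0 and none passed, with a median of 0.17 against 0.03 over all genes; 56.0% of all genes had a difference above 0. Atf4, whose protein is set mainly by translation, read 7.76, 7.65, 7.56 and 7.60 in wild-type and 7.69, 7.69, 7.84 and 7.96 in knockout replicates (difference 0.15, SE 0.08; limma adjusted p = 0.319). Ddit3, which encodes CHOP, read 7.10 to 7.42 in wild-type and 7.10 to 7.27 in knockout arrays, with a difference of -0.05 (95% interval -0.25 to 0.14). Differences were 0.09 for the transcription factor Atf3, 0.15 for Ppp1r15a, the subunit that lets eIF2 be dephosphorylated, and 0.22 for Sesn2, an inhibitor of mTORC1 signalling. The difference was 0.18 (SE 0.08; limma adjusted p = 0.206) for Trib3, a pseudokinase induced by ATF4 and CHOP.

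Asns, the asparagine synthetase, was ordered by the set of arrays as well as by genotype. Its row (17464718) read 8.03, 8.24, 7.42 and 7.51 in wild-type and 8.67, 8.48, 7.90 and 7.90 in knockout replicates 1 to 4, where replicates 1 and 2 of each group carry Y-linked signal. Arrays with Y-linked signal were higher by 0.67 on average, and the genotype groups overlapped although within each set both knockout arrays were above both wild-type arrays. Within the sets the difference was 0.44 and 0.43. The SE was 0.22 without and 0.08 with the set as a block, and the limma adjusted p was 0.293 and 0.0175.

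Chac1, an enzyme that degrades glutathione, was high in knockout replicates 3 and 4. Its row (17374807) read 8.65, 8.44, 8.33 and 8.58 in wild-type and 8.35, 8.38, 9.65 and 9.28 in knockout replicates 1 to 4. The pair with Xist signal was above all other arrays and the pair with Y-linked signal within the wild-type range. Among arrays with Xist signal the difference was 1.01 (limma adjusted p = 0.0471, 2 against 2 arrays; 1.43% of all genes called). It was -0.18 among those with Y-linked signal (adjusted p = 0.658) and 0.41 overall (SE 0.27; adjusted p = 0.394). The difference between the sets did not pass limma's interaction test (adjusted p = 0.264). High Chac1 went with low chaperones in knockout replicate 3 and with high chaperones in replicate 4.

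**Figure D4:**
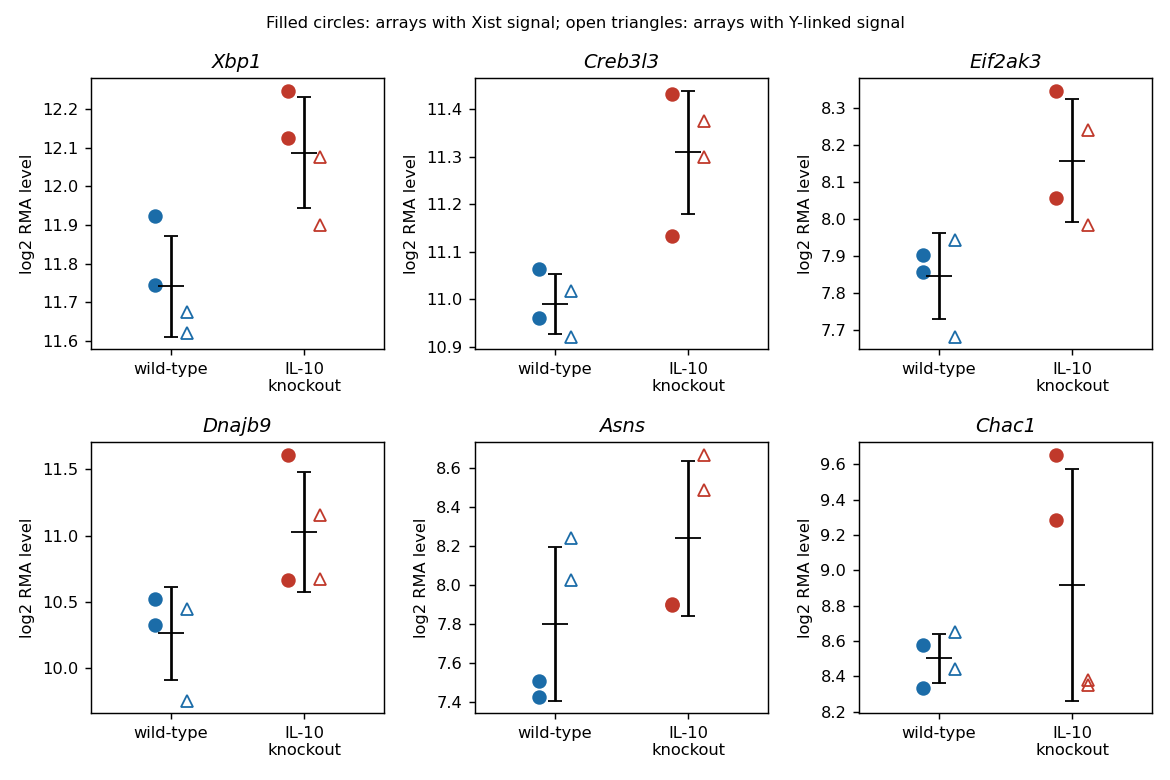
Log2 RMA levels of 6 members by genotype, with filled circles for arrays with Xist signal, open triangles for arrays with Y-linked signal, and bars for mean and SD (n = 4); each vertical axis has its own range. Xbp1, Creb3l3, Eif2ak3 and Dnajb9 are higher in knockout arrays with little or no overlap, Asns divides by set within each genotype, and Chac1 is high only in the 2 knockout arrays with Xist signal.

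Set side by side, the roles had median differences of 0.31 (5 sensors and transducers), -0.08 (13 chaperones), -0.07 (5 translocation and degradation genes) and 0.17 (8 ATF4-CHOP genes). Over the 8 arrays the median range was 0.79 log2 units for chaperones and 0.70 for translocation and degradation genes. It was 0.52 for sensors and transducers and 0.44 for ATF4-CHOP genes, against 0.44 for all genes. The median SD of the chaperones was 0.15 in wild-type and 0.34 in knockout arrays, against 0.12 and 0.13 over all genes. That of the translocation and degradation genes was 0.10 and 0.28. The roles also differed in level. ATF4-CHOP genes lay at percentiles 56.4 to 82.06 of mean level among all genes. The chaperones lay at 93.81 to 99.55, apart from Manf (65.35). All these medians are descriptions, and neither the difference between roles nor the part of level in it was tested.

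Of 135 other genes of the pathway 5 were called, 3.7% of them against 3.15% of all genes, a share near the background. Of 30 other folding and glycoprotein quality control genes 1 was higher and 29 did not pass, with a median of -0.06. Txndc11, a thioredoxin-domain protein of the ER membrane, rose from 8.60 ± 0.21 to 9.34 ± 0.22 (difference 0.74, SE 0.13; limma adjusted p = 0.0207), and lost its call without wild-type replicate 1 (0.0627) or knockout replicate 4 (0.0545). Knockout replicate 3 was lowest for 21 of these 30 genes and replicate 4 highest for 17, as for the chaperones. Of 32 other translocation and degradation genes none passed in limma (4 at an unadjusted p under 0.05; median 0.03), and replicate 4 was highest for 22 and replicate 3 lowest for 16. The smallest p-values were those of Ufd1 (0.26; adjusted p = 0.110), Os9 (0.19; 0.149) and Rnf5 (-0.21; 0.163), all in limma.

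Of 19 other sensors and regulators none passed in limma (4 at an unadjusted p under 0.05). Nck1, an adaptor known to modulate PERK signalling, had 0.37 (adjusted p = 0.0623), Creb3 0.26 (0.0908) and Ppp1r15b 0.18 (0.175), and Nck1 passed with the set as a block (0.0278). Of 44 other ATF4 and CHOP targets 1 was higher, 2 were lower and 41 did not pass, with a median of 0.01. Map1lc3b, which encodes the autophagy protein LC3B, rose by 0.54 (limma adjusted p = 0.0251), by 0.77 and 0.31 in arrays with Xist and with Y-linked signal. The serine synthesis enzyme Psph fell by 0.53 (0.0292) and the cysteinyl-tRNA synthetase Cars by 0.58 (0.0270). Each of these calls was lost without any of several single arrays, among them wild-type replicates 1, 2 and 3 and knockout replicate 4 for all 3 genes; without these the limma adjusted p was at most 0.0924. For Map1lc3b and Psph it was lost without wild-type replicate 4 too, and for Psph and Cars without knockout replicate 2. Of 12 genes linked to CREBH in liver only Hamp, the iron hormone hepcidin, rose (2.23; limma adjusted p = 0.0425), and 11 did not pass. Leaving out any 1 array other than wild-type replicate 4 ended this call (highest adjusted p = 0.120). The trended and robust eBayes of limma ended it too (adjusted p = 0.107). The Hamp difference was 1.20 in arrays with Xist signal (limma adjusted p = 0.199). It was 3.26 in those with Y-linked signal, where Hamp was called (2 against 2 arrays in each set).

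No marker of other secretory cells passed. None of 11 B and plasma cell genes and none of 11 pancreatic genes was called by limma (2 and 2 at an unadjusted p under 0.05). Their mean levels were 6.60 to 6.79 and 5.31 to 5.60 over the 8 arrays, with knockout replicate 4 lowest in the first and replicate 3 highest in the second. Neutrophil and macrophage markers were higher in knockout arrays: 10 of 14 neutrophil genes rose and 1 fell, and 6 of 12 macrophage genes rose, among them Mmp8 (2.16), Cxcr2 (0.86), C1qb (0.64) and Cd163 (1.01). Mean levels of the neutrophil list were 6.32 to 6.68 in wild-type and 7.12 to 7.65 in knockout arrays, and of the macrophage list 9.29 to 9.59 and 9.82 to 10.27. These groups did not overlap, as for Creb3l3, Eif2ak3 and Dnajb9, and the part of these cells in those differences was not tested. Of 10 stellate cell and matrix genes 1 rose and 2 fell, among them Vim (0.53; limma adjusted p = 0.0160) and Lrat (-1.01; 0.0429). Of these 10 genes 8 had a difference below 0, with a median of -0.21, so Vim went against most of its list. The call of Vim was lost without wild-type replicate 1 or knockout replicate 4 (adjusted p at most 0.0549), and that of Lrat without any 1 array other than knockout replicate 1 (at most 0.124). Of 9 sinusoidal endothelial genes only Lyve1 was called, higher by 1.05 (limma adjusted p = 0.0066), and Emcn had -0.45 (0.0792). Of 6 bile duct genes only Pkhd1 was called, which fell by 0.84 (limma adjusted p = 0.0249; at most 0.0793 without wild-type replicate 1 or knockout replicate 4, which ended the call), and Sox9 had 0.52 (0.0583). Among 12 hepatocyte genes only Tat was called, higher by 0.51 (limma adjusted p = 0.0247). It lost its call without wild-type replicate 2, 3 or 4 or knockout replicate 4 (adjusted p at most 0.0758). Its difference was 0.70 and 0.31 in arrays with Xist and with Y-linked signal.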

How the data were processed

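Values are the authors' log2 levels per array row, deposited after robust multi-array averaging (RMA). The submitters' processing notes name R 3.0.1, while the background correction, probe summary and genome build were not given in the sources used here. Of 41345 rows, 23521 name 1 gene in the platform annotation, and for each of 22180 genes the row with the highest mean over the 8 arrays was kept. No filter on low values was used, so all 31 measured members entered the test. Genes were compared with limma 3.58.1 in R 4.3.3 (lmFit and eBayes, no covariates) with Benjamini-Hochberg adjustment over all genes, and called at an adjusted p below 0.05. The fit was tested on simulated data. An interaction of genotype with the set of arrays (Xist or Y-linked signal) was fitted likewise. Correlations with Hspa5 used exact two-sided permutation over 8 arrays. Motifs were searched with Python 3.11.15, and figures drawn with matplotlib 3.10.9.

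Named genes are every measured member and the called genes of each wider list or otherwise its 3 smallest p-values. From the marker lists they are the called hepatocyte, plasma cell and pancreatic markers, and the 2 smallest p-values of each other list. Sec23a, Uso1, Lman2, Mcfd2, Ppp1r11, Bud31, Olfr2, Alb and Il10 were added after values were seen. The members, lists and tests were chosen with earlier results of these data known. Alternatives were a filter on the lowest 40% of genes, the mean of a gene's rows, every row, a common median, quantile and cyclic loess scaling, a trended and robust eBayes, weights per array, blocks for the replicate number or the set, each set alone, each array left out, and an adjusted p below 0.1. No array repeated another (smallest root mean square difference 0.26). The number of arrays limits the precision.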

Additional observations from a re-analysis of the deposited data

Results flagged for a closer look

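In wild-type arrays, Sdf2l1 read 10.01 in replicate 4, far below the other 3 arrays at 10.54 to 10.63. This was the 1 sample far from its group among 62 groups of 4 arrays checked over the members, and chance marks about 1 in 20 such groups. Wild-type replicate 4 was also the lowest wild-type array for Hspa5, Hyou1, Calr, Pdia6, Dnajb11, Dnajc3, Creld2 and Manf. For Hsp90b1, Pdia3, P4hb and Dnajb9 another wild-type array was lowest. Relative to each gene's wild-type mean, the chaperone median was -0.15 in this array. It was likewise the lowest wild-type array for Sel1l, Edem1 and Derl3, but not for Sec61b and Herpud1.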

How the results depend on the processing

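The count of members called was 0 and became 1 with array weights, cyclic loess, quantile normalization or the filter on low genes (Creb3l3 each time), 1 with the replicate block (Dnajb9), 1 in the arrays with Xist signal alone (Chac1), 2 with the set as a block (Xbp1 and Asns) and 3 at an adjusted p below 0.1 (Creb3l3, Xbp1 and Dnajb9, against 7.6% of all genes). Leaving out 1 array gave 0 to 1. Over all genes, 699 were called. With every row tested, 332 of 41345 rows were called, and 234 genes by their kept row. The count of genes was 317 and 171 in the arrays with Xist and with Y-linked signal alone. It was 1685 at an adjusted p below 0.1, and 207 to 1040 with 1 array left out. With a common median the split of 347 higher and 352 lower became 236 and 393. The replicate block gave 497 (Dnajb9 limma adjusted p = 0.0317). Deviations of same-numbered arrays correlated at 0.27, 0.04, -0.10 and 0.29. No wild-type array correlated best with its own number in the other group. Same-numbered arrays do share the Xist or Y-linked set, so the replicate block also takes up that split. In the wider lists of pathway genes 5 calls became 1 over every row, 8 with cyclic loess, 3 and 1 in the sets with Xist and Y-linked signal, 9 at an adjusted p below 0.1, and 0 to 10 with 1 array left out. The number of members called for the interaction was 0, and 0 to 1 with 1 array left out: Chac1 passed without knockout replicate 4, where 1 knockout array with Xist signal remains and is assumed to vary like the other groups, and calls over all genes went from 6 to 61. The ATF4-CHOP median of 0.17 was 0.24 in the arrays with Xist and 0.0754 in those with Y-linked signal. With 1 array left out it was 0.14 to 0.21, that of sensors 0.25 to 0.33, of chaperones -0.17 to 0.07 and of degradation genes -0.17 to 0.06.

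The difference of 13 members, none of them called in the 8 arrays, changed sign under at least 1 setting. Quantile normalization and cyclic loess gave 0.0387 and 0.0289 for Atf6 and 0.0338 and 0.0201 for Hspa5, and the common median -0.0365 for Calr. Array weights gave 0.0362 for Hspa5, 0.0135 for Hsp90b1, 0.0456 for Dnajb11, 0.0704 for Creld2 and 0.0044 for Sel1l. Arrays with Xist signal gave 0.0781 for Atf6, 0.0181 for Hsp90b1, -0.0237 for Calr and 0.16 for Creld2; those with Y-linked signal gave -0.0143 for Atf4, 0.0525 for Ddit3 and -0.18 for Chac1. With 1 array left out the differences spanned 0 for Atf6 (-0.0673 to 0.0439), Hspa5 (-0.12 to 0.0717), Hsp90b1 (-0.17 to 0.0691), Hyou1 (-0.48 to 0.0131), Calr (-0.0638 to 0.13), Pdia6 (-0.37 to 0.0318), Dnajb11 (-0.28 to 0.13), Creld2 (-0.44 to 0.16), Sel1l (-0.17 to 0.0624), Edem1 (-0.0083 to 0.14) and Ddit3 (-0.10 to 0.0043). The cause was not tested.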
